A study of Mus musculus with 10 samples.

Results

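Choline phospholipid genes were followed in the lungs of mice on a fish oil or a coconut oil diet. The set held 7 of the 24059 gene symbols in the count table: Chka, Pcyt1a, Chpt1, Cept1, Lpcat1, Stard10 and Stard7, all found by symbol. Stard7 was picked for its pattern between the diets in these same counts, so its values are described without a test. The other 6 were chosen for their place in the pathway. Whole lung, flushed with PBS, came from female C57Bl/6 mice aged 14 weeks that had spent 8 weeks on a semipurified high-fat diet with 19% fat. The 5 FO mice ate menhaden fish oil (91% of the fat) with corn oil (9%), and the 5 CO mice ate saturated fat from coconut oil with olive and corn oil. No mouse was on normal chow, so FO is compared only with another high-fat diet, and all mice had undergone airway reactivity testing before the lungs were taken. Each mouse was 1 library of lung RNA, read as counts of single-end reads per gene.

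Phosphatidylcholine is the main phospholipid of all cell membranes and, in the form with saturated acyl chains, of the surfactant film that lowers surface tension in the alveoli. Alveolar type 2 cells make it by the CDP-choline (Kennedy) pathway: choline is phosphorylated, activated with CTP, and joined to diacylglycerol. They then remodel the acyl chains through lysophosphatidylcholine and store the product in lamellar bodies. Some proteins with a START lipid-binding domain carry phosphatidylcholine between membranes, and Stard7 brings it to mitochondria.

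The libraries were shallow. Totals ran from 229766 to 1124963 counts, and between 21.8% and 87.0% of each lay on Rn45s, the ribosomal RNA precursor. Other genes together had 46470 to 473254 counts in the FO mice (median 235781) and 45177 to 280686 in the CO mice (median 136211). Values below are CPM (counts per 1000000) scaled by TMM, a factor that lines up the bulk of genes between libraries. The floor of a mouse, 3 counts, stood for 2.13 CPM in the deepest library (FO mouse 2) and 18.5 CPM in the shallowest (CO mouse 1). Pcyt1a, Chpt1 and Stard7 were among the 2438 genes that passed the filter on low counts. Chka, Cept1, Lpcat1 and Stard10 did not, and their fold changes come from the fit of the 14161 genes with any count. In whole lung, fewer cells of a type and less RNA per cell cannot be told apart.

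The 3 members that passed the filter are the ones whose levels can be compared between the diets, and the 250 bases before their transcription starts are shown here (RefSeq, build GRCm38.p6, 5′ to 3′ on the strand of the gene). Capitals mark matches to the GC box GGGCGG and to the CCAAT box, read on both strands, so that CCGCCC is a GC box on the other strand. The positions are chr2:127269979-127270228 on the plus strand for Stard7, chr16:32430671-32430920 on the plus strand for Pcyt1a and chr10:88503971-88504220 on the minus strand for Chpt1. The gene positions given below are from GENCODE, where Stard7 starts at 127270218 and Chpt1 at 88504073. Both starts lie inside the stretches shown, so part of each stretch is within the GENCODE gene.
Stard7: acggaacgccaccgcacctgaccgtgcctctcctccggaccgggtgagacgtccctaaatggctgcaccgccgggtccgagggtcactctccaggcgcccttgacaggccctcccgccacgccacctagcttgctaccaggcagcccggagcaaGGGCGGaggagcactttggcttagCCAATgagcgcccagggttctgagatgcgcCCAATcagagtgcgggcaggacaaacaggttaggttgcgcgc
Pcyt1a: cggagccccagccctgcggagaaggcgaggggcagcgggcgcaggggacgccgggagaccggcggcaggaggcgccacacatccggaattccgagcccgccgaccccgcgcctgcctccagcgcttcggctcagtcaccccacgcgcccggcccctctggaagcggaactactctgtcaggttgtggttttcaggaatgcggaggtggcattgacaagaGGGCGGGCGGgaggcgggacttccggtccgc
Chpt1: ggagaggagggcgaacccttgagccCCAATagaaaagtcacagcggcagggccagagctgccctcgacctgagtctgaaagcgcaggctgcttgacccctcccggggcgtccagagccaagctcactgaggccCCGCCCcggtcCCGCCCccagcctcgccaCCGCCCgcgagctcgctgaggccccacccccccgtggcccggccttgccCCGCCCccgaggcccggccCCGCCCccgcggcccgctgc

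Over the full windows of 250 bases before to 50 after the start, the bases were 67.0% G or C for Stard7, 69.7% for Pcyt1a and 75.3% for Chpt1, against a median of 52.7% over 32851 promoters. Stard7 had 1 GC box and 2 CCAAT boxes, which began 96, 72 and 42 bases before the start. Pcyt1a had 2 overlapping GC boxes and no CCAAT box, and Chpt1 had 5 GC boxes and 1 CCAAT box. The 7 genes had 11 promoters in the table, of which 8 held a GC box, a motif found in 35.7% of all promoters. Stard10 was the gene with none. A CCAAT box stood in 4 of the 11, those of Chka, Chpt1 and Stard7 and 1 of Cept1, against 37.4% of all. The E-box CACGTG (7.15% of all promoters), a sterol regulatory element (0.0913%) and a nuclear receptor direct repeat with a spacer of 1 base (0.0396%) were in none of their windows. Each motif was sought only as an exact match to 1 form, so its absence means no exact match and near matches were not counted. The Pcyt1a stretch shown above holds a sequence that differs by 1 base from the form of the sterol regulatory element sought. Whether Pcyt1a has a working sterol element there was not tested. The counts say nothing of which start site a transcript used.

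Chka, on chr19 (GRCm38, 3851773 to 3894369), encodes choline kinase alpha, the enzyme of the first step. It was near the limit of detection, with 11 counts in FO and 8 in CO. The FO mice held 5, 2, 2, 1 and 1 counts and the CO mice 1, 0, 1, 4 and 2. Only FO mouse 1 and CO mouse 4 were above the floor of 3 counts. A difference between the diets was not detectable at this depth (log2 fold change FO over CO 0.18, 95% interval -1.57 to 1.94, edgeR p = 0.838, exact permutation p = 0.556). Chkb, the other choline kinase gene, had no count in any mouse. Overlaps of Chkb with other genes, where reads can be lost, were not examined, so absence of its RNA is not read from this.

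Pcyt1a, on chr16 (32430921 to 32475070), encodes the CTP:phosphocholine cytidylyl transferase that limits the rate of the pathway. Its level was 35.3, 47.6, 30.0, 27.6 and 27.4 CPM in FO mice 1 to 5 and 43.3, 34.6, 14.2, 51.7 and 70.7 CPM in CO mice 1 to 5. The CO mice spanned the whole range of the FO mice, with the lowest value in CO mouse 3 and the highest in CO mouse 5. Means were 33.6 ± 8.46 CPM (SD, n = 5) in FO and 42.9 ± 20.9 CPM (SD, n = 5) in CO. The log2 fold change was -0.36 (SE 0.35, 95% interval -1.09 to 0.37), which missed the threshold (edgeR's quasi-likelihood test, p = 0.315, Benjamini-Hochberg adjusted p = 0.998; exact two-sided permutation test of mean log2 CPM, p = 0.619). Without CO mouse 5 the log2 fold change was -0.05, and without CO mouse 3 it was -0.60.

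Chpt1, on chr10 (88452745 to 88504073), encodes cholinephosphotransferase, which joins CDP-choline to diacylglycerol. It had the steadiest level of the 7 genes, with a pooled SD within diets of 0.35 on the log2 CPM scale against 0.60 to 1.01 for the others. The FO mice had 22.5, 17.8, 30.0, 33.3 and 30.4 CPM and the CO mice 30.9, 24.7, 16.2, 35.1 and 24.4 CPM. The diets overlapped over nearly their full ranges. Means were 26.8 ± 6.44 CPM (SD, n = 5) and 26.3 ± 7.17 CPM (SD, n = 5). The log2 fold change was -0.05 (SE 0.31, 95% interval -0.69 to 0.60; edgeR p = 0.882, adjusted p = 0.998, exact permutation p = 0.929), an interval that still holds changes of over 1.5-fold in either direction.

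Cept1, on chr3 (106502260 to 106547802), encodes the phosphotransferase that accepts both CDP-choline and CDP-ethanolamine. FO mice 1 to 5 had 9, 10, 1, 5 and 0 counts, and CO mice 1 to 5 had 0, 0, 6, 8 and 2. The 3 mice at 0 were FO mouse 5 and CO mice 1 and 2, where the exact Poisson 95% interval reached 11.2, 22.8 and 18.3 CPM. The log2 fold change was 0.18 (95% interval -1.10 to 1.46, edgeR p = 0.785, exact permutation p = 0.548).

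Lpcat1, on chr13 (73467197 to 73516422), encodes the lysophosphatidylcholine acyltransferase that forms saturated phosphatidylcholine for surfactant, and it is known as a gene of alveolar type 2 cells. It had 6, 12, 0, 6 and 0 counts in the FO mice and 1, 2, 0, 0 and 8 in the CO mice. A count of 0 came in mice of both diets, also in CO mouse 4, where the exact Poisson 95% interval reached 3.595 CPM. Mean CPM was lower in FO (4.36 ± 4.06 against 5.17 ± 4.95, SD, n = 5 each), whereas the fitted log2 fold change was 0.44 (SE 0.71, 95% interval -0.94 to 1.83). The edgeR test gave p = 0.529 and the exact permutation test p = 0.714, so that no direction can be given for Lpcat1.

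Stard10, on chr7 (101317086 to 101346626), encodes a START protein that carries phosphatidylcholine and phosphatidylethanolamine. The FO mice had 13.9, 9.94, 30.0, 11.5 and 12.2 CPM, from 13, 14, 5, 10 and 4 counts. The CO mice had 12.4, 4.95, 4.06, 17.5 and 14.6 CPM, from 2, 1, 2, 18 and 12 counts. The high value of FO mouse 3 rested on 5 counts, with an exact Poisson 95% interval of 9.73 to 69.9 CPM, and the remaining FO mice lay inside the range of the CO mice. The log2 fold change was 0.17 (SE 0.50, 95% interval -0.81 to 1.15; edgeR p = 0.729, adjusted p = 0.995), and the exact permutation test gave p = 0.278.

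In all, 0 of the 6 members other than Stard7 passed an unadjusted p of 0.05, by edgeR or, for the 2 that passed the filter, by DESeq2. In the background, 2.91% of genes past the filter (1.68% higher and 1.23% lower in FO) and 4.15% of genes with any count (2.58% higher and 1.57% lower) passed it. None of the 2438 genes passed at a Benjamini-Hochberg adjusted p of 0.05, while 71 did unadjusted with edgeR and 62 with DESeq2. The intervals of Chka and Cept1 held changes of 2-fold in either direction.

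**Figure D1:**
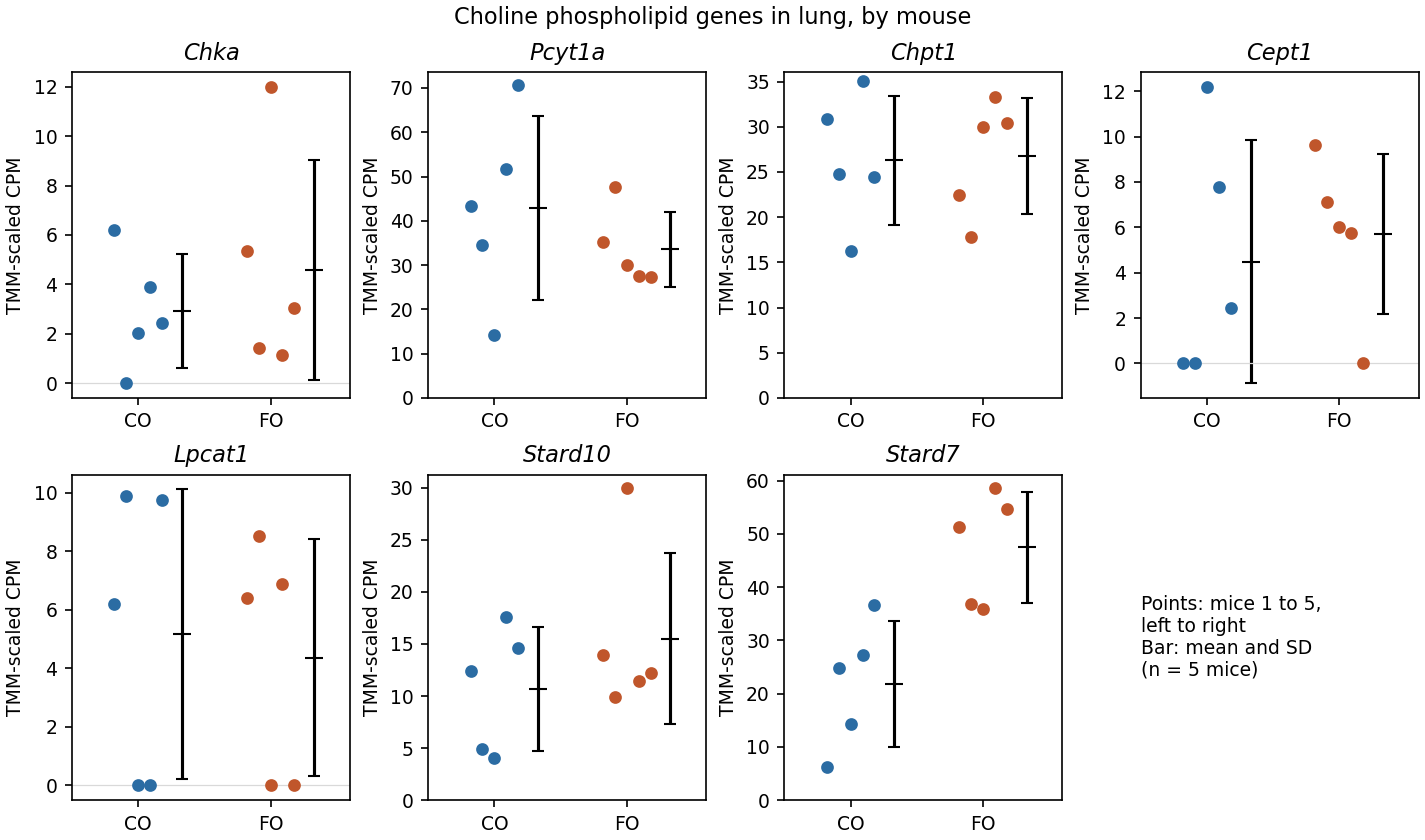
TMM-scaled CPM (y axis) of the 7 genes in each mouse, with CO mice in blue and FO mice in orange, 1 point a mouse and a bar for the mean and SD of 5 mice. For Stard7, 4 of 5 FO points lie above the highest CO point (36.6 CPM), whereas the groups of the other 6 genes intermingle.

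Stard7, on chr2 (127270218 to 127298932), was the gene picked for its difference, and it had 246 counts in all. FO mice 1 to 5 had 48, 52, 6, 51 and 18 counts, or 51.3, 36.9, 36.0, 58.5 and 54.8 CPM. CO mice 1 to 5 had 1, 5, 7, 28 and 30 counts, or 6.18, 24.7, 14.2, 27.3 and 36.6 CPM. The diets touched at 1 place: FO mouse 3 (36.0 CPM) was below CO mouse 5 (36.6 CPM), and the other 4 FO mice were above every CO mouse. Among all genes past the filter, 1.76% had at least 4 FO mice above every CO mouse, a share from which nothing is read here, since Stard7 was picked for this pattern. Means were 47.5 ± 10.4 CPM (SD, n = 5) in FO and 21.8 ± 11.8 CPM (SD, n = 5) in CO, a ratio of 2.18 and a fitted log2 fold change of 0.98. The FO values varied less between mice, with a coefficient of variation of 21.9% against 54.2% in CO. The CO values rested on fewer counts, down to 1, and the part of counting error in this spread was not tested.

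The lowest CO value of Stard7 came from the shallowest library, CO mouse 1, but the next lowest did not come from a library as shallow. It was 14.2 CPM in CO mouse 3, on 7 counts (exact Poisson 95% interval 5.71 to 29.3 CPM). The depth of that mouse outside Rn45s, 136211 counts, was the median of the CO mice. The single count in CO mouse 1 allowed a level of up to 34.4 CPM (exact Poisson 95% interval from 0.156 CPM), and the 6 counts in FO mouse 3 spanned 13.2 to 78.3 CPM. With counts added up within a diet, which gives the deep libraries more weight, Stard7 had 175 counts (47.2 CPM) in FO and 71 counts (26.3 CPM) in CO, a ratio of 1.80. In the 5 mice with at least 200000 counts outside Rn45s, which were 3 FO and 2 CO mice, the log2 fold change was 0.64. Those mice had 51.3, 36.9 and 58.5 CPM in FO and 27.3 and 36.6 CPM in CO. The lowest FO value (36.9) was barely above the highest CO value (36.6). This subset was chosen after the data had been seen, and nothing is read from the order of so few mice.

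Counts of Stard7 were also set against those of the other members within each mouse, which needs no scaling between libraries. This comparison was chosen after the data had been seen. Since Stard7 was picked for its pattern between the diets, the order of the diets in its ratios is a description and not separate support. For each Pcyt1a count there were 1.45, 0.776, 1.20, 2.13 and 2.00 Stard7 counts in FO mice 1 to 5 and 0.143, 0.714, 1, 0.528 and 0.517 in the CO mice. For each Chpt1 count there were 2.29, 2.08, 1.20, 1.76 and 1.80 Stard7 counts in the FO mice and 0.2, 1, 0.875, 0.778 and 1.5 in the CO mice. In both ratios 4 FO mice were above every CO mouse and 1 FO mouse was not: FO mouse 2 with Pcyt1a and FO mouse 3 with Chpt1. The diets overlapped more for Stard7 counts per 100 counts of the surfactant protein gene Sftpc, with 6.41, 2.38, 3.24, 6.39 and 5.49 in FO and 1.04, 3.91, 1.69, 5.62 and 2.70 in CO. Only FO mice 1 and 4 were above every CO mouse by that measure.

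**Figure D2:**
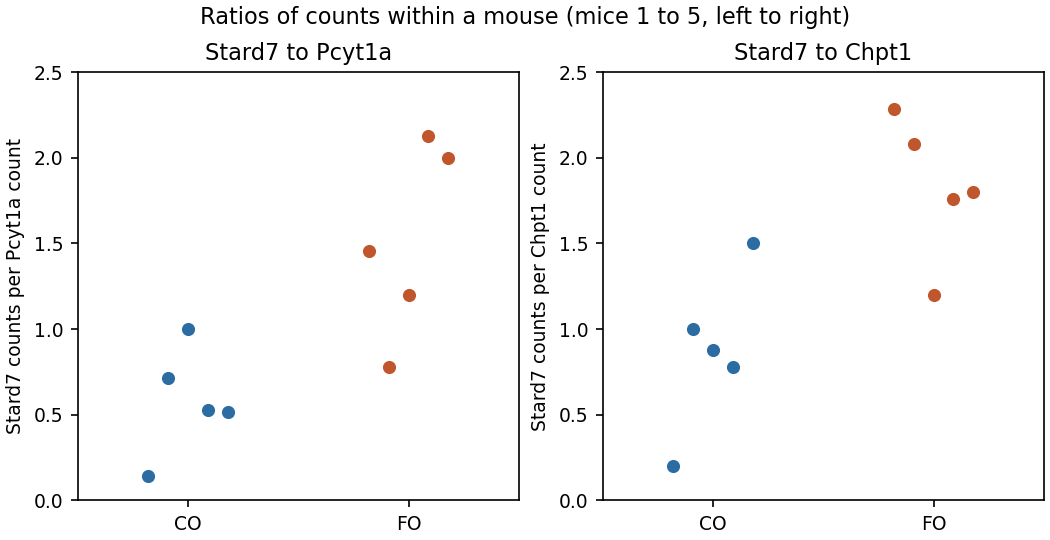
Stard7 counts per Pcyt1a count (left) and per Chpt1 count (right) on the y axes, by diet, 1 point a mouse in the order 1 to 5 within each diet. In each panel 4 FO mice lie above the highest CO mouse, at 1 (left) and 1.5 (right). Stard7 was picked for its difference between the diets, so this order is a description.

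**Figure D3:**
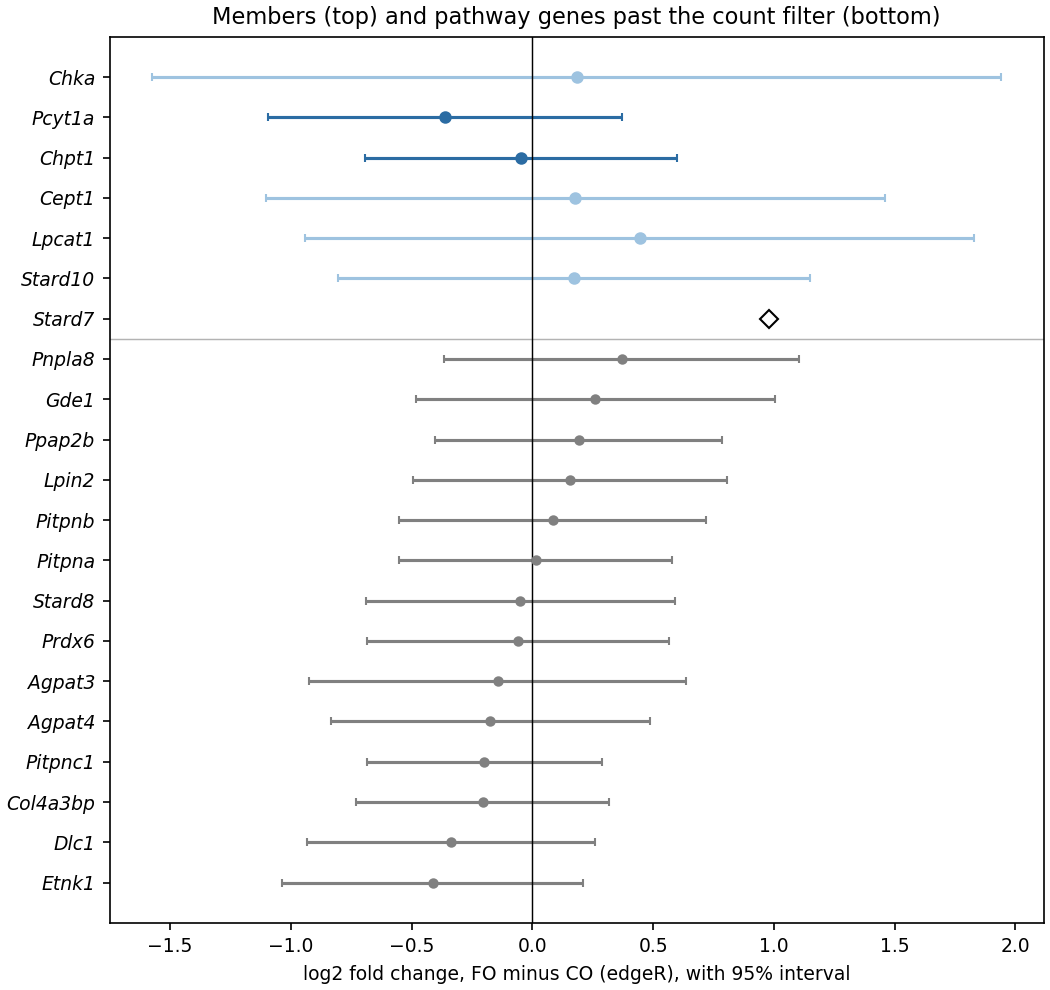
Fitted log2 fold change, FO over CO (x axis), with its 95% interval for the members (top) and the 14 pathway genes past the filter (bottom). Pale points are members below the filter, taken from the fit of all genes with any count, and the open diamond is Stard7, shown without an interval because it was picked on these values. Every interval includes 0.

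Per length, the order of the 7 genes over all 10 mice was Stard7, Stard10, Pcyt1a, Chpt1, Cept1, Lpcat1 and Chka. Levels in CPM per kb of exon were 6.22 ± 3.08 for Stard7, 5.42 ± 2.99 for Stard10, 5.16 ± 2.13 for Pcyt1a and 3.19 ± 0.773 for Chpt1 (SD, n = 10 mice). They were 1.63 ± 1.39 for Cept1, 1.03 ± 0.926 for Lpcat1 and 0.312 ± 0.288 for Chka. The ranges of every pair of neighbours overlapped, and a pair stood in this order in 5 to 8 of the 10 mice. Stard10 and Pcyt1a, in order in 5 mice, changed places when the longest transcript was used as the length (7.60 and 7.98 CPM per kb). In the CO mice alone, where Stard7 had 3.92 CPM per kb, Pcyt1a (5.79) and Stard10 (4.43) had higher means.

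**Figure D4:**
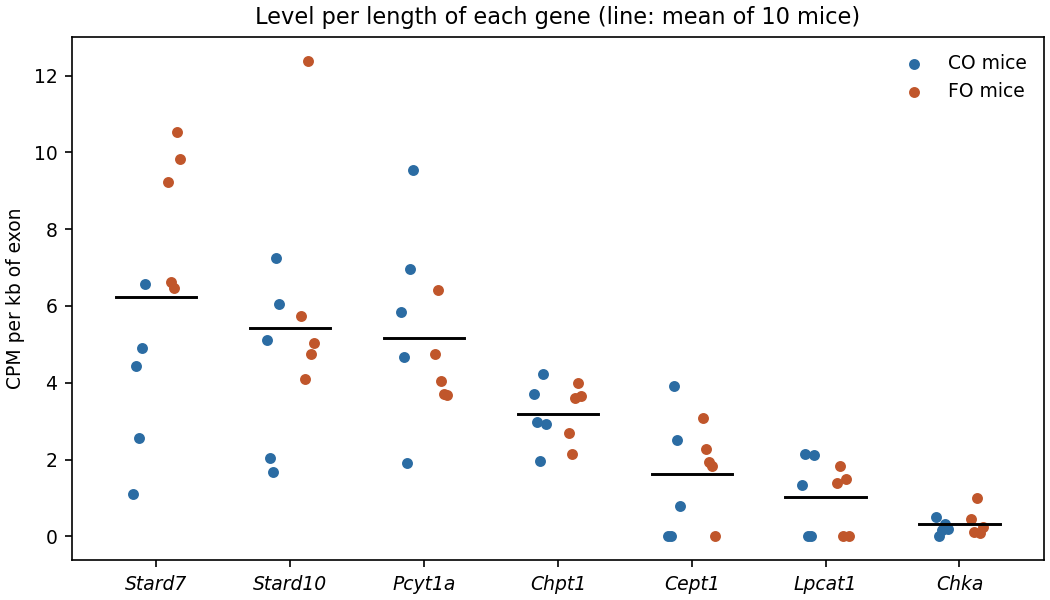
CPM per kb of exon (y axis) of each gene in 10 mice (CO blue, FO orange), genes ordered by the mean over all mice, which the line marks. The points of neighbouring genes overlap throughout, from Stard7 (mean 6.22) down to Chka (mean 0.312).

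Genes related to the members by pathway or by protein domain were read from 7 lists of 73 genes. The lists covered choline uptake, choline and ethanolamine kinases, further phosphotransferases, and supply of phosphatidic acid and diacylglycerol. They also covered lysophospholipid acyltransferases, phospholipases, proteins with a START domain whatever their role, and phosphatidylinositol transfer proteins. Of these genes 72 were in the table, 65 had a count and 14 passed the filter. None of the 14 passed an unadjusted p of 0.05, where 2.91% of all genes did, and 6 of the 14 had a positive log2 fold change, with a median of -0.06 against 0.00 for all genes tested. The values ran from -0.41 for Etnk1, an ethanolamine kinase gene (edgeR p = 0.181, the smallest of the 14, exact permutation p = 0.175), to 0.37 for Pnpla8, a mitochondrial phospholipase gene.

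By list, the genes past the filter were 0 of 6 for choline uptake and 1 of 5 kinases and cytidylyl transferases. They were 0 of 5 further phosphotransferases and methylation genes, and 4 of 16 for phosphatidic acid and diacylglycerol supply. They were 0 of 8 lysophospholipid acyltransferases, 3 of 14 phospholipases, and 6 of 19 START domain and phosphatidylinositol transfer proteins. In the fit of genes with any count, 1 list gene passed the threshold, Etnk2, an ethanolamine kinase gene lower in FO, on 1 count in CO mouse 4, 2 counts in CO mouse 5 and none elsewhere, which is at or under the floor in every mouse. The background of that fit was 4.15%.

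The most abundant list genes per length, none of which passed the threshold, were a phospholipase, 2 genes of diacylglycerol and phosphatidic acid supply, a phosphodiesterase and 2 transfer proteins. Prdx6, a peroxiredoxin with phospholipase A2 activity that turns over surfactant phosphatidylcholine, stood at 81.0 CPM per kb of exon over all mice. Its level was 382 ± 125 CPM (SD, n = 5) in FO and 396 ± 201 CPM (SD, n = 5) in CO, with a log2 fold change of -0.06. Next were Ppap2b, a phosphatidate phosphatase gene (17.6 CPM per kb, log2 fold change 0.19), Gde1, a glycerophosphodiester phosphodiesterase gene (14.3 and 0.26), and Agpat4, an acyltransferase gene of phosphatidic acid synthesis (12.3 and -0.17). The phosphatidylinositol transfer protein genes Pitpnc1 (12.3 CPM per kb, log2 fold change -0.20) and Pitpna (11.5 and 0.01) were as abundant. Each of these 6 was higher per length than any of the 7 members.

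Markers of alveolar type 2 cells, the cells that make surfactant, were read beside these results. Sftpc was present in every mouse, at 485 to 1554 CPM, and none of the 12 markers was at 0 throughout, although Abca3, the lipid transporter of lamellar bodies, had 18 counts in all. The summed CPM of the 12 markers ran from 1743 to 3618 in FO (median 2294) and from 1076 to 2954 in CO (median 1806). Of the 9 past the filter, 9 had a positive log2 fold change (median 0.33), as did 1233 of all 2438 genes, and 0 passed the threshold. In the fit of genes with any count 10 of the 12 were positive, and Abca3 (-0.60) and Nkx2-1 (-0.37), a transcription factor gene of lung epithelium, were not. Sftpc, surfactant protein C, had 1075 ± 290 CPM in FO and 782 ± 346 CPM in CO (SD, n = 5 each), a log2 fold change of 0.45 (edgeR p = 0.128, exact permutation p = 0.127). Values for other surfactant and lamellar body genes were 0.36 for Slc34a2, the phosphate transporter, 0.29 for Lamp3 and 0.00 for Sftpb. The part of these levels in the value of Stard7 was not tested.

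Neutrophil markers had a summed CPM over 5 markers of 41.2 to 282 in FO and 24.7 to 39.6 in CO, without overlap. Of the single neutrophil markers, only S100a9 separated the diets. S100a9, a calcium-binding protein gene of neutrophils, was the 1 of these past the filter and rose (log2 fold change 2.28, unadjusted edgeR p = 0.000154, adjusted p = 0.375, exact permutation p = 0.00794, the smallest possible), and 0.451% of genes past the filter had groups that did not overlap. The part of the neutrophil markers in the Stard7 value was not tested either. S100a8, S100a9, Retnlg and Mmp8, and Akap5 below, are among genes the study lists from its own test of these diets in lung RNA. The marker lists were chosen with earlier results of these data known. The separated sum and the calls of these genes are therefore descriptions and not separate support. The alveolar type 1 list had 1 of 6 genes past the threshold, Akap5, lower in FO (log2 fold change -0.96, edgeR p = 0.0107, adjusted p = 0.998, exact permutation p = 0.19). Of all genes past the filter, 1.23% were called lower in FO. Akap5 stood at 716 and 563 CPM in CO mice 4 and 5. It had 266, 203 and 158 CPM in CO mice 1 to 3, against 175 to 223 CPM in the FO mice. Another gene of that list, Aqp5, had no count in any mouse. No gene past the filter in the lists for club, ciliated, capillary endothelial, macrophage, fibroblast, erythroid or cardiac muscle cells passed the threshold, and their summed CPM overlapped between the diets. In the fit of genes with any count, where 2.58% of genes were called higher and 1.57% lower, the calls were S100a8, S100a9, Retnlg and Mmp8 of the 5 neutrophil markers, Cd68 of the macrophage list, Alas2 of the erythroid list and Tnnt2 of the cardiac muscle list (all higher in FO), and Scgb3a1 of the club cell list and Akap5 (lower). Among these calls, Mmp8 had 13 counts in FO and 1 in CO, Cd68 had 18 and 3, and Retnlg had 26 and 5. For each of these genes no CO mouse was above the floor of 3 counts, and the adjusted edgeR p was 0.905. Of the erythroid list, 4 of 5 genes, the haemoglobins, were listed at 0 in every mouse.

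The genes whose log2 CPM followed Stard7 most closely over the 10 mice were Tmtc1 (Pearson r = 0.92), Bccip (0.88), Nox4 (0.88), Tmem66 (0.88) and Csnk2a1 (0.85). Spearman's rho was 0.77, 0.77, 0.79, 0.68 and 0.83 in the same order. These are descriptions, picked as the highest of 2438 genes in 10 libraries that differ in depth and diet. CO mouse 1, the shallowest library, held 1 count each of Stard7, Tmtc1 and Nox4 and 0 of Tmem66, the lowest level of each gene. Bccip and Csnk2a1 had 5 and 8 counts there. The part of this mouse in the values of r was not tested. Closest to Pcyt1a were Stk4 (0.93), Arhgef2 (0.86) and Hnrnpul2 (0.79), and closest to Chpt1 were Rtcb (0.88), Pcbp1 (0.86) and Sdhb (0.85). Between the members r was 0.27 for Pcyt1a and Chpt1, 0.06 for Pcyt1a and Stard7 and 0.12 for Chpt1 and Stard7.

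The direction of Stard7 was the same under every processing tried, with FO above CO. Stard7 was picked for this pattern in the same counts, so the kept direction is a description and not separate support. Its log2 fold change was lowest, 0.42, with library size alone as the scaling, where the median of all genes was -0.48. Leaving out each mouse in turn gave 0.83 to 1.25, the ends without CO mouse 3 and without CO mouse 5. Without FO mouse 2 and CO mouse 5, which had far more Malat1 than the others (8.53% and 6.15% of the counts outside Rn45s against at most 1.05%), it was 1.34. The log2 fold change of Pcyt1a was negative in each of these fits, from -0.94 with library size alone to -0.05 without CO mouse 5. It passed the threshold in none of these.

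**Figure D5:**
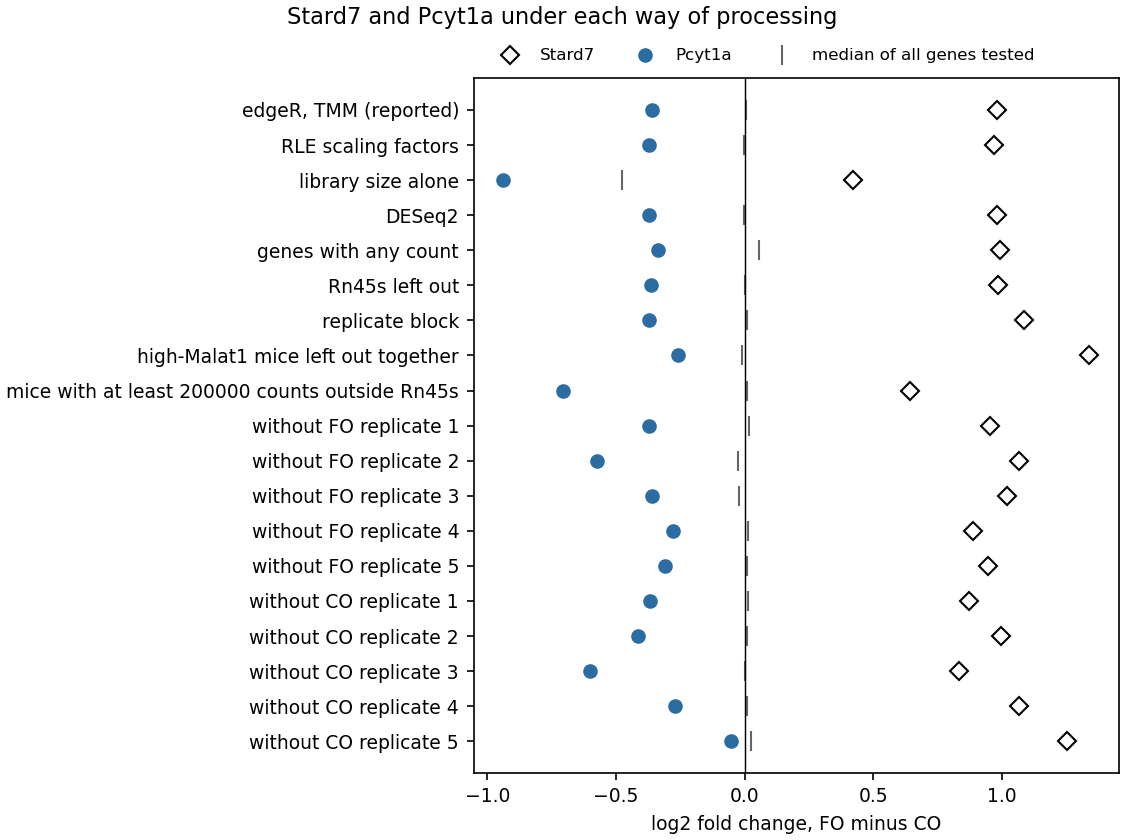
Log2 fold change, FO over CO (x axis), of Stard7 (open diamonds) and Pcyt1a (filled points) under each way of processing (rows), with a tick for the median of all genes tested. Stard7 lies between 0.42 and 1.34 and Pcyt1a between -0.94 and -0.05, and the median of all genes leaves 0 by more than 0.1 only with library size alone.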

How the data were processed

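RNA from 10 lungs had been made into libraries with TruSeq RNA v2 or riboZero and sequenced as single-end reads. The authors deposited raw counts per gene symbol from STAR 2.4.0f1 (mm10), SAMtools 0.1.19 and htseq-count. The kit of each mouse, the annotation and the strand setting are not given in the sources used here, so reads where Pcyt1a, Chpt1, Cept1, Chka and Stard10 overlap other genes on the opposite strand could be split or lost. Stard7 and Lpcat1 overlap none. Diets were taken from the labels, and each mouse is a separate animal.

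Counts were tested with edgeR 4.0.16 (R 4.3.3): TMM, filterByExpr (minimum count 10, minimum total 15) and the quasi-likelihood test with diet alone, over the whole table. A gene was called at an unadjusted p under 0.05, the threshold of the study, with Benjamini-Hochberg p over all genes beside it. The SE was the fold change divided by the square root of F. Log2 CPM used a prior count of 2. Single members other than Stard7 were also tested with the exact permutation test over 252 assignments, where p can be no lower than 0.00794. Exon lengths and positions came from GENCODE vM21 (GRCm38). Intervals and floors cover counting error only, and reads were not marked by molecule.

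The members and lists were chosen with earlier results of these data known. Genes named were all members, list genes past the threshold or among the 6 highest per kb, 5 type 2 cell genes, markers that moved with a result, and the 5 (Stard7) or 3 genes most like each member past the filter. Etnk1, Pnpla8, Etnk2, Chkb, Nkx2-1, Malat1, Slc44a2 and markers called with any count were named after their values were seen. Alternatives were RLE factors, library size alone, DESeq2 1.42.0, other count filters, Rn45s left out, the replicate number as a block, mice left out and, for levels, the longest transcript. The subset of deep mice and the within-mouse ratios were added after seeing the data. The edgeR fit was tested on simulated data. Correlations of deviations from the group means of same-numbered mice averaged -0.122 (5 pairs) against 0.0304 for the other 20 pairs.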

Additional observations from a re-analysis of the deposited data

Results flagged for a closer look

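Stard10 in FO mouse 3 stood apart from the other FO mice, at 30.0 CPM against a next highest value of 13.9 CPM. The gap was 0.802 of the range of the 5 mice, above Dixon's critical value at the 95% level. The value rested on 5 counts in the second shallowest library. It was the 1 of 32 groups of 5 mice in which a mouse stood apart, and chance gives about 1 in 20.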

How the results depend on the processing

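None of the 6 members other than Stard7 passed the threshold under any alternative that gave a value. Stard7, picked for its direction in these same counts, kept it in all 18. Of the 198 alternative values of those 6 members, 161 kept their direction. No member had 10 counts in every mouse, so that filter gave no member value. With library size alone the log2 fold changes reversed for Chka (-0.32), Cept1 (-0.37) and Stard10 (-0.47), as did the differences in mean log2 CPM for Chka (-0.042), Chpt1 (-0.28), Cept1 (-0.034) and Lpcat1 (0.0011), while the median of all genes moved to -0.48. In the mice with at least 200000 counts outside Rn45s, the log2 fold changes of Chka (-0.29) and Stard10 (-0.44) and the differences of Chka (-0.24), Chpt1 (-0.26), Lpcat1 (0.96) and Stard10 (-0.38) reversed. Without the 2 mice with high Malat1, the log2 fold changes of Chpt1 (0.13) and Cept1 (-0.12) reversed. Their differences in mean log2 CPM (0.133 and 0.207) kept their direction there. The cause was not tested.

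Leaving out each mouse in turn gave log2 fold changes of -0.16 to 0.52 for Chka, -0.13 to 0.17 for Chpt1, -0.077 to 0.67 for Cept1, -0.030 to 1.59 for Lpcat1 and -0.0063 to 0.53 for Stard10. The differences in mean log2 CPM ranged from -0.0099 to 0.48 for Chka, -0.52 to 0.0031 for Pcyt1a, -0.11 to 0.14 for Chpt1 and -0.39 to 0.17 for Lpcat1. Genes called in the whole table numbered 71 (41 higher, 30 lower in FO). They numbered 33 with library size alone (1 higher, 32 lower), 587 with any count, 15 with at least 10 counts in every mouse, 107 with Rn45s left out (55 and 52), 187 in the deep mice (90 and 97), and 54 to 156 with each mouse left out, the highest without FO mouse 2 (46 higher, 110 lower). The pathway lists had 1 gene called with any count and 0 in the other settings. Per kb of the longest transcript, levels were 11.1 for Stard7, 7.98 for Pcyt1a, 5.45 for Chpt1 and 0.806 for Chka. Depth limits Chka most, at 11 and 8 counts in the diets.

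Same-numbered mice are different animals and did not deviate together, and 0 of 5 FO mice correlated best with the CO mouse of the same number. With the replicate block 55 genes were called, Chpt1 reversed to 0.014 and Stard7 was at 1.08, and no call of a member or list gene changed.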

Other observations

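Slc44a2, a choline transporter-like gene, failed the count filter but had 241 counts (171 CPM) in FO mouse 2 and 82 counts (99.99 CPM) in CO mouse 5, against 4.87 to 26.4 CPM in the other 8 mice. The same 2 mice had the highest share of Malat1. The log2 fold change of Slc44a2 between the diets was 0.53 (edgeR, genes with any count, p = 0.104, adjusted p = 0.905, exact permutation p = 0.976).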
